A study of Mus musculus with 12 samples.

Results

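Transcripts of the ubiquitin ligase that removes cyclin E were measured in sorted bone marrow erythroblasts, the precursors of red cells, of mice. The genes were Fbxw7, Skp1, Cul1, Rbx1, Skp2, Cks1b, Gsk3b, Usp28 and Cul3, chosen for their roles in cyclin E turnover, and all 9 had probes on the array whose annotated gene symbol equals theirs. They had 15 of the 45281 probes. After a filter on dim signal, 12 of these probes and 8 of the 9 genes were kept among the 9388 genes tested, and the gene without a kept probe was Cks1b.

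In one genotype the cyclin E gene holds knocked-in T74A and T393A substitutions. The other is wild type, from littermates, and both are on strain background 129. The labels do not give the animals' age or sex, or say whether the knock-in was on 1 or both alleles. Erythroblasts were sorted as positive for Ter119, an erythroid surface protein, and high for CD71, the transferrin receptor encoded by Tfrc. Each genotype had 6 of the 12 Illumina arrays, which are read in 1 colour. Arrays with adjacent numbers (1 and 2, 3 and 4, and so on) were taken as duplicates of 1 sample, which gave 3 wild type samples (arrays 1 and 2, 7 and 8, 9 and 10) and 3 knock-in samples (arrays 3 and 4, 5 and 6, 11 and 12).

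The SCF ligase is built from the scaffold Cul1, the RING protein Rbx1, the adaptor Skp1 and an exchangeable F-box protein that binds the substrate. Fbw7, encoded by Fbxw7, is the F-box protein that recognises cyclin E once its phosphodegrons carry phosphate, which Gsk3 and Cdk2 place there. The threonines exchanged for alanine in the knock-in lie in these degrons, and such substitutions are known to impair recognition while the ligase itself is left as it is. Cyclin E that is not bound to Cdk2 can also be removed by a ligase built on Cul3, and the F-box protein Skp2, with its partner Cks1, is best known for removing the Cdk2 inhibitor p27.

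Fbxw7 has 3 annotated start sites in RefSeq (GRCm38.p6), and the 100 bases before each are shown because the gene's transcripts begin with alternative first exons. All lie on the plus strand, and capitals mark CpG dinucleotides.
Fbxw7 start at chr3:84815477-84815576: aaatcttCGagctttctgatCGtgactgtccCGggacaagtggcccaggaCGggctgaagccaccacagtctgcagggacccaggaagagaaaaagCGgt
Fbxw7 start at chr3:84864045-84864144: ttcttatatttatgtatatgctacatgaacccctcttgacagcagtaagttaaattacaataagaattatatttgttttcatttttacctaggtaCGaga
Fbxw7 start at chr3:84952111-84952210: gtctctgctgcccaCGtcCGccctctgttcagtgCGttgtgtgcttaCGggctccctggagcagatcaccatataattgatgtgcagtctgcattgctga
These windows hold 5, 1 and 4 CpG dinucleotides, in the order shown. Over the 300 bases from 250 before to 50 after each start, the counts were 24, 1 and 6, against a median of 7 over 32851 promoters of that length. The first start is thus CpG-rich, with more than 80.0% of promoters, and the second AT-rich, with a GC content of 29.7%. The sources used here do not give which start the array's Fbxw7 probes report on.

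The 2 arrays of a sample differed by an SD of 0.0945 to 0.143 on the log2 scale, against 0.298 to 0.477 for arrays of the same genotype from different samples. Between 15988 and 18227 probes per array lay above a background limit of 6.6 to 7.7 intensity units. Separate animals are not named in the labels, and every p-value therefore reflects the spread among these samples alone, which may be technical. Of the erythroid marker genes listed, 12 of 16 were tested, among them Tfrc, Gata1 and Klf1. Their mean level overlapped between the genotypes (12.3 to 12.8 log2 units in wild type, 12.6 to 12.8 in knock-in samples). Neutrophil markers, with 13 of 13 listed genes tested, were also bright in the sorted cells. Their mean level was 12.9 to 13.5 in wild type and 12.7 to 13.4 in knock-in samples, which overlapped. Markers of B lineage cells, with 12 of 17 listed genes tested, moved with genotype: their mean level was 8.06 to 8.72 in wild type and 7.36 to 7.54 in knock-in samples, and Cd79a and Pax5 had no kept probe. All 12 tested B lineage genes were lower in the knock-in, with 0 called by limma. At an unadjusted limma p under 0.05, 10 of them were lower, against 3.09% of all genes. For 11 of them every knock-in sample lay below every wild type sample, against 6.47% of all genes. The mean of the proliferation markers differed by 0.31 and that of the macrophage markers by -0.33, with ranges that overlapped. Of 14 tested proliferation genes, 11 were higher in the knock-in and 3 lower. Tpx2, Ube2c and Cdk1 were higher in every knock-in sample than in every wild type sample, 3 of 14 against 7.23% of all genes. The same 3 were higher at an unadjusted limma p under 0.05, against 5.56% of all genes. All 11 tested macrophage genes were lower, 0 of them at that p. Markers of mast cells, basophils and eosinophils differed by -0.41, with all 9 tested genes lower and 3 of them at an unadjusted limma p under 0.05. All 6 tested T and NK cell genes were lower, by a mean of -0.20. For both lists the mean levels overlapped between the genotypes. Of all 9388 genes, 5485 were lower in the knock-in. In sorted cells, fewer cells of a type and less RNA per cell cannot be told apart. The part of these marker shifts in the values below was not tested.

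The question put to these genes was whether transcripts of the degradation machinery differ when cyclin E carries substitutions that impair recognition by Fbw7. No member passed. Of the 8 tested, 0 were called higher and 0 lower by limma with Benjamini-Hochberg adjustment at 0.05, where 0.0852% of all genes were called. At an unadjusted limma p under 0.05 the count was also 0 of 8, against 8.65% of all genes (5.56% higher and 3.09% lower). That count depends on the probe taken for a gene. With the mean of a gene's probes, Cul1 differed by 0.32 on the log2 scale, with a 95% interval of 0.08 to 0.56. Gsk3b then differed by 0.35 (-0.01 to 0.70), and neither passed (limma adjusted p = 0.373 and 0.589). For 0 of the 8 members did all samples of one genotype lie above those of the other, against 13.7% of all genes (7.23% higher and 6.47% lower). The median difference of the 8 genes was 0.12 on the log2 scale, beside -0.03 for all genes. Their differences ran from -0.05 for Rbx1 to 0.54 for Cul3, a span that lies inside the 5th to 95th percentile of all genes (-0.32 to 0.47) for each member other than Cul3.

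Fbxw7, the substrate receptor of cyclin E, had levels of 7.41, 6.80 and 6.95 log2 units in the wild type samples (arrays 1 and 2, 7 and 8, 9 and 10, the order used throughout). Its levels in the knock-in samples were 7.19, 6.80 and 7.18 (arrays 3 and 4, 5 and 6, 11 and 12). The genotypes overlapped, the highest sample was wild type, and the lowest of each genotype were alike. The means were 7.06 ± 0.32 and 7.06 ± 0.22 (SD, n = 3 each), so that Fbxw7 differed by 0.00 ± 0.19 (SE, limma adjusted p = 1.00). The 95% interval of the ratio, 0.725-fold to 1.38-fold, leaves room for a change of that size in either direction. The interval was wider with no further background correction and a floor at the lowest background limit. There it ran from -0.81 to 0.85 on the log2 scale, against -0.46 to 0.47 in the reported fit. The authors' processed values also gave -0.81 to 0.85. The Fbxw7 probe used was above background on 12 of 12 arrays. The other 2 Fbxw7 probes were not kept: they lay above the limit on 1 and 2 of 12 arrays, with intensities between -5.4 and 12.5 units against 31.9 to 114.4 for the kept probe. All 3 are annotated to the same RefSeq transcript.

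Skp2, the F-box protein that presents p27, was dim: 4 of 6 wild type arrays and 6 of 6 knock-in arrays exceeded the background limit. Its 1 kept probe is annotated to the cDNA record AK037002. Its levels were 6.32, 6.40 and 6.01 in wild type and 6.47, 6.44 and 6.37 in knock-in samples. The lowest wild type sample was that of arrays 9 and 10, and the knock-in samples overlapped with the wild type sample of arrays 7 and 8. Skp2 differed by 0.19 ± 0.12 (SE, limma adjusted p = 0.812), with a 95% interval of 0.926-fold to 1.40-fold. Without wild type arrays 9 and 10 it differed by 0.07. Cks1b encodes the small protein that helps Skp2 grip phosphorylated p27. Its 1 probe lay above the background limit on 0 of 12 arrays, with intensities of -5.2 to 4.6 units, so that it was not well above background in either genotype and no fold is given. The offset of 50 added here narrows folds of genes as dim as Skp2. With no further background correction and a floor at the lowest background limit, 6.6 units, Skp2 differed by 0.78 and was not called either. Wild type arrays 9 and 10, at 3.6 and 1.3 units, lay below that floor, so that the 0.78 depends on where the floor is set.

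Among the core subunits, Skp1, which ties every F-box protein to the cullin, had levels of 6.78, 6.53 and 6.74 in wild type and 6.78, 6.54 and 6.94 in knock-in samples. The values overlapped, and the lowest sample of each genotype came from arrays 5 to 8. Skp1 differed by 0.07 ± 0.14 (SE, limma adjusted p = 0.98). Rbx1, which recruits the ubiquitin-charged E2 enzyme, had levels of 11.62, 11.47 and 11.49 in wild type and 11.49, 11.44 and 11.51 in knock-in samples. Its range over the 6 samples was 0.175 log2 units, and 6.96% of all genes had a smaller one. Rbx1 differed by -0.05 ± 0.09 (SE, limma adjusted p = 0.979), and its 95% interval, 0.835-fold to 1.12-fold, was the narrowest among the members. Its sign turned with the scaling, to 0.03 with cyclic loess and 0.23 with 75th percentile scaling. A dimmer Rbx1 probe differed by -0.17 ± 0.16 (SE, limma adjusted p = 0.952 over all probes).

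Cul1, the scaffold, was reported by 2 probes that did not show the same picture. Its brighter probe had levels of 8.78, 8.87 and 8.18 in wild type and 8.79, 8.78 and 8.78 in knock-in samples, so that the wild type sample of arrays 9 and 10 stood below the other 5. On it Cul1 differed by 0.17 ± 0.19 (SE, limma adjusted p = 0.94), and without that sample by -0.04. The dimmer probe, annotated to the cDNA record AK040053, had levels of 6.69, 6.55 and 6.73 in wild type and 7.16, 7.09 and 7.12 in knock-in samples, and there all 3 knock-in samples lay above all 3 wild type samples. It differed by 0.47 ± 0.09 (SE, limma unadjusted p = 0.0016) and did not pass over all probes (limma adjusted p = 0.157). The sources used here do not give whether this record covers the transcript that the brighter probe reads.

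Gsk3b encodes a kinase that phosphorylates the degron read by Fbw7. Its brighter probe, annotated to the cDNA record AK021230, had levels of 7.78, 7.87 and 7.17 in wild type and 7.74, 8.12 and 7.66 in knock-in samples. The genotypes overlapped, and the probe differed by 0.23 ± 0.22 (SE, limma adjusted p = 0.928). Without wild type arrays 9 and 10 this was 0.02, and without knock-in arrays 5 and 6 it was 0.09. The dimmer probe, annotated to a RefSeq transcript of the gene, had levels of 7.40, 7.46 and 7.22 in wild type and 7.83, 7.84 and 7.78 in knock-in samples. On it the genotypes did not overlap and Gsk3b differed by 0.46 ± 0.10 (SE, limma unadjusted p = 0.00255), which did not pass over all probes (limma adjusted p = 0.19).

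These 2 probes were the ones among the 12 kept on which the samples of the genotypes stood apart, both higher in the knock-in. That is 2 of 12, beside 13.6% of all 16894 probes in either direction and 7.57% higher. They were also the 2 of 12 at an unadjusted limma p under 0.05, which 8.59% of all probes reached. The limma adjusted p called 0 of the 12 probes, where 0.0829% of all probes passed. An exact two-sided permutation test of 3 samples against 3 has 20 assignments and cannot give a p below 0.1, so that it cannot pass for any single probe. Counted as 12 independent samples, the arrays gave limma adjusted p of 0.000406 for the dimmer Cul1 probe and 0.00107 for the dimmer Gsk3b probe. That count takes duplicate arrays as replicates, and with the duplicates as a random block 0 of the 12 probes passed.

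**Figure D1:**
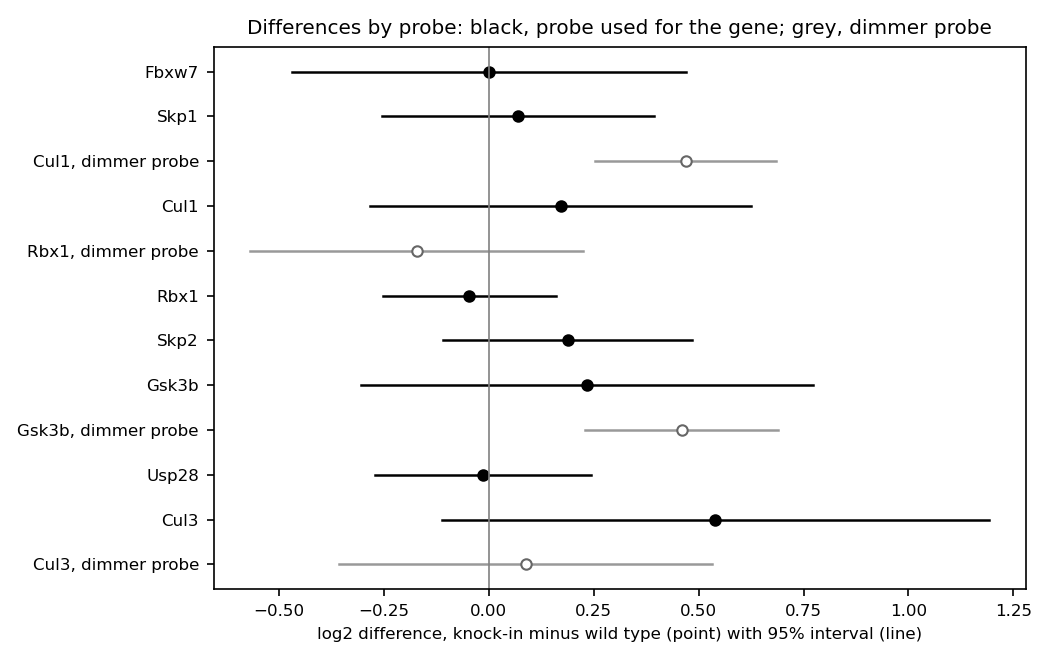
Log2 difference, knock-in minus wild type, of the 12 kept probes of the SCF and cyclin E turnover genes (point) with its 95% interval (line), from limma on 3 samples of each genotype. Black marks the probe that stands for the gene and grey open points the dimmer probes; the dimmer Cul1 and Gsk3b probes, at 0.47 and 0.46, are the 2 whose interval lies above 0, and neither passed after adjustment.

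Usp28, a deubiquitinase that works on substrates of Fbw7 and on Fbw7 itself, was close to background, with 3 of 6 wild type arrays and 4 of 6 knock-in arrays past the limit. Its levels were 6.14, 6.31 and 6.05 in wild type and 6.13, 6.25 and 6.07 in knock-in samples. The genotypes overlapped, and the highest sample of each lay among arrays 5 to 8. Usp28 differed by -0.01 ± 0.11 (SE, limma adjusted p = 0.999).

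Cul3, the scaffold of the second route for cyclin E, had the largest difference and the largest spread of the 8 members. Its levels were 9.93, 10.19 and 9.24 in wild type and 10.27, 10.63 and 10.09 in knock-in samples. The lowest knock-in sample (arrays 11 and 12) lay below the highest wild type sample (arrays 7 and 8), and the lowest value was that of wild type arrays 9 and 10. The means were 9.79 ± 0.49 and 10.33 ± 0.27 (SD, n = 3 each), so that Cul3 differed by 0.54 ± 0.27 (SE) or 1.45-fold, with a 95% interval of 0.931-fold to 2.27-fold (limma adjusted p = 0.684). Its range over the 6 samples, 1.39 log2 units, was wider than that of 95.2% of all genes, while its duplicate arrays differed by an SD of 0.0754. A dimmer Cul3 probe, annotated to the same transcript, differed by 0.09 ± 0.18 (SE, limma adjusted p = 0.999 over all probes). Without wild type arrays 9 and 10 the differences were 0.27 on the brighter and -0.11 on the dimmer probe. These were the lowest values with 1 sample left out. The highest on the brighter probe was 0.74, without wild type arrays 7 and 8.

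**Figure D2:**
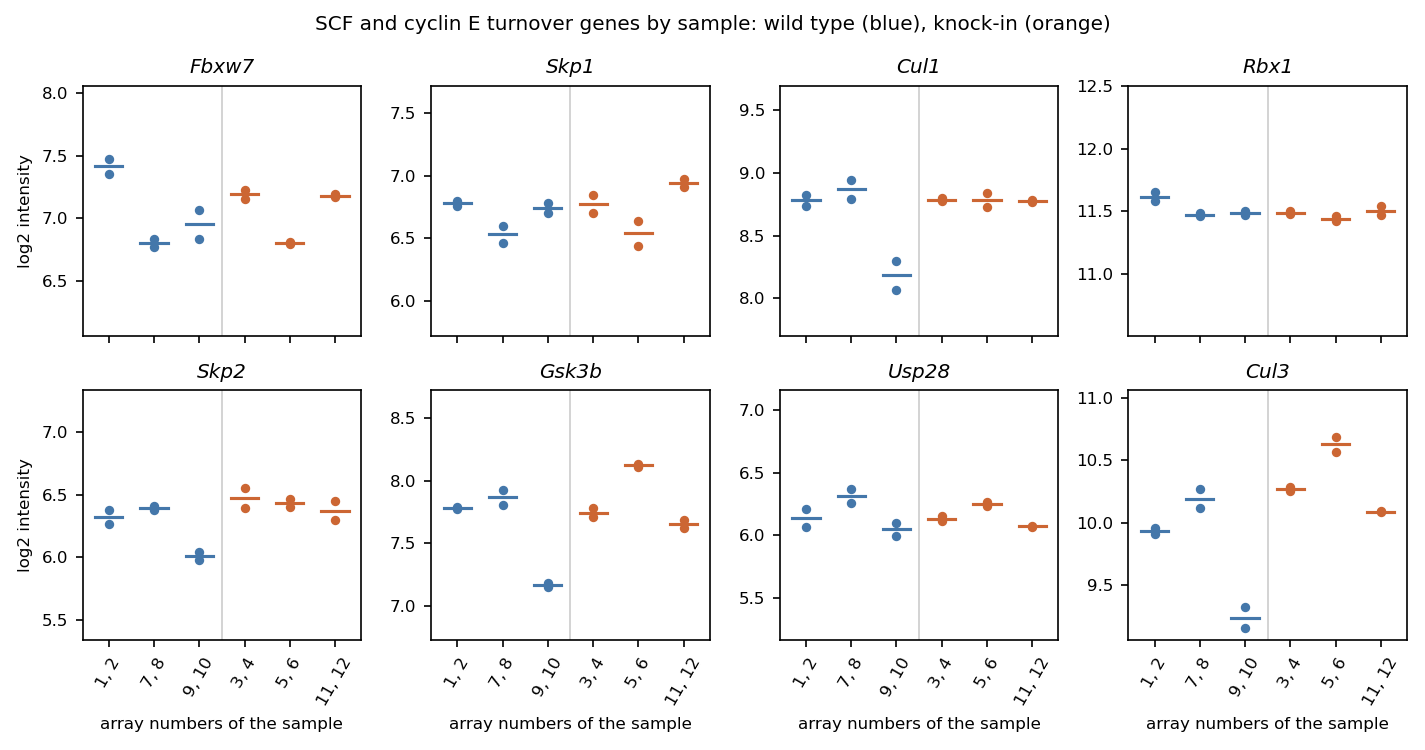
Log2 intensity of the 8 tested genes in each sample, named by its array numbers on the x axis. Points are the 2 duplicate arrays, the short line is their mean, blue is wild type and orange is knock-in, and every panel spans 2 log2 units; wild type arrays 9 and 10 are lowest for Cul1, Skp2, Gsk3b, Usp28 and Cul3.

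One wild type sample set much of the spread among these genes. Arrays 9 and 10 held the lowest value of 5 of the 8 members, Cul1, Skp2, Gsk3b, Usp28 and Cul3, and of 21.1% of all genes. The sample also held the highest value of 25.4% of all genes. Mean intensity before normalization was 134 and 144 units on arrays 9 and 10, against 170 to 247 on the other arrays. In that sample Tfrc was also lowest, at 10.95 against 11.99 to 12.69 in the other 5 samples. The erythroid markers Alas2 and Hbb-b2 went the other way and were highest there, at 15.37 and 13.19. The mean of the macrophage markers was highest, at 8.68 against 7.37 to 8.25. The erythroid marker mean, 12.5, lay between the wild type samples of arrays 7 and 8 (12.3) and 1 and 2 (12.8). Without that sample the median difference of the 8 members was -0.01. The part of these markers and of the lower intensity in the members' values was not tested.

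Arrays fall into 3 blocks of 4 adjacent numbers, each with 1 sample of each genotype, to which no label attaches a litter, a day or a chip. Within these blocks Cul3 differed by 0.34 (arrays 1 to 4), 0.44 (5 to 8) and 0.85 (9 to 12), higher in the knock-in in all 3. Skp2 differed by 0.15, 0.04 and 0.37, also higher in all 3, as were 16.3% of all genes. Fbxw7 differed by -0.23, -0.0014 and 0.23, so that the blocks at either end opposed each other. With the blocks as a term in the fit, a choice made with earlier results of these data known, 0 of the 8 genes and 0 of the 12 probes passed, where 0.671% of all genes were called higher and 0.266% lower, and Cul3 had a limma adjusted p of 0.128.

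**Figure D3:**
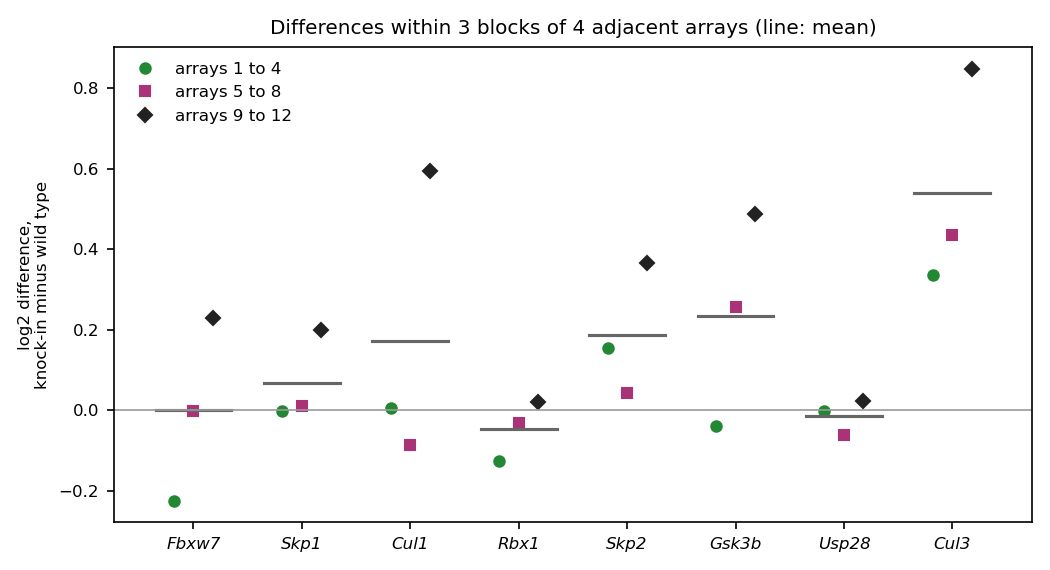
Log2 difference, knock-in minus wild type, of the 8 genes within each of 3 blocks of 4 adjacent arrays (points), with the mean of the 3 as a line. Cul3 and Skp2 lie above 0 in all 3 blocks, as do 16.3% of all genes.

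The substrate itself and its kinase gave the following values. Ccne1, which encodes cyclin E1, differed by -0.21 ± 0.25, Ccne2, the other E-type cyclin, by 1.52 ± 0.28 and Cdk2, their kinase, by 0.28 ± 0.14 (SE, limma adjusted p = 0.952, 0.141 and 0.667). The Ccne1 value was -0.02 with 75th percentile scaling and ran from -0.42 (without wild type arrays 7 and 8) to -0.03 (without knock-in arrays 5 and 6) when 1 sample was left out. Cdk2 differed by 0.55 with that scaling and by 0.16 without wild type arrays 9 and 10. Its dimmer probes differed by 0.21, 0.21 and 0.05 (limma adjusted p = 0.996, 0.699 and 0.999 over all probes). The sources used here do not give where the Ccne1 probe lies relative to the exchanged codons, so its level does not check the genotype labels.

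Of the rest of the ligase pathway, 1 gene passed. The lists were drawn up by role from textbook knowledge, with earlier results of these data known. Of 8 listed genes whose proteins are Skp2 substrates 7 were tested, and Cdkn1a, which encodes the inhibitor p21, rose from 6.90 ± 0.16 to 8.62 ± 0.16 (SD, n = 3 each), or by 1.73 ± 0.13 (SE, limma adjusted p = 0.0194). Its 2 dimmer probes differed by 1.30 and 0.60, and over all probes the first of these passed and the other did not (limma adjusted p = 0.0305 and 0.121). This value lost its call when any 1 sample other than wild type arrays 9 and 10 was left out (limma adjusted p = 0.0608 to 0.192). The median of these 7 genes was 0.34, beside -0.03 for all genes. Of 25 tested genes whose proteins are Fbw7 substrates, 0 passed in either direction, and the median was -0.07. Among all 9388 genes, 3903 were above 0 and 5485 below. Of these 25 substrate genes, 11 were above 0 and 14 below. The smallest p among them belonged to Ccne2 and then to Klf5, a zinc finger transcription factor, at 0.71 ± 0.17, and Aurka, a mitotic kinase, at 0.41 ± 0.17 (SE, limma adjusted p = 0.228 and 0.568). In the fit with blocks, 5 pathway genes were called higher and 1 lower, where 63 of all 9388 genes (0.671%) were called higher and 25 (0.266%) lower. They were Cdkn1a, Cdkn1b (p27), Ccne2, Tob1, an antiproliferative protein, Klf5, and the F-box gene Fbxw2, which differed by -0.66. Of these, Cdkn1b, Tob1 and Fbxw2 are named after their values were seen. Cdkn1b differed by 1.02 on the probe used and by 0.31 on a dimmer one. In the fit without blocks neither passed over all probes (limma adjusted p = 0.111 and 0.526).

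Other F-box genes share Skp1, Cul1 and Rbx1 with Fbxw7. Of 36 tested, 0 passed, 14 were above 0 and 22 below, with a median of -0.07. Among all 9388 genes, 3903 were above 0 and 5485 below. Fbxo33 differed by 0.42 ± 0.10, Fbxw5 by -0.37 ± 0.11 and Fbxo45 by 0.69 ± 0.24 (SE, limma adjusted p = 0.255, 0.315 and 0.431). Among 13 other cullins and ligase subunits 0 passed and the median was -0.0045. The Cul3 adaptor Spop differed by 0.33 ± 0.12 and the scaffolds Cul4a and Cul4b by -0.56 ± 0.21 and 0.32 ± 0.13 (SE, limma adjusted p = 0.474, 0.50 and 0.562).

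Cullin ligases are switched on by the ubiquitin-like protein Nedd8 and off by the COP9 signalosome, which removes it. Of 16 tested genes for E2 enzymes, neddylation and the exchange factor CAND1, 0 passed, and the median was 0.07. Arih1, a ligase that works beside neddylated cullins, differed by 0.43 ± 0.11, Ube2f, a Nedd8-conjugating enzyme, by -0.48 ± 0.17 and Ube2g1, an E2 enzyme, by 0.33 ± 0.12 (SE, limma adjusted p = 0.292, 0.448 and 0.514). Of all 9388 genes, 5485 were below 0, and of the 9 signalosome genes, all of them tested, 7 were. In the signalosome 0 genes passed and the median was -0.15. Its subunits Gps1, Cops7b and Cops3 differed by -0.27 ± 0.12, -0.15 ± 0.09 and -0.19 ± 0.12 (SE, limma adjusted p = 0.643, 0.749 and 0.799), and Cops3 differed by 0.06 under 75th percentile scaling.

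Of 18 tested genes for other degron kinases, phosphatases and deubiquitinases 0 passed, with a median of 0.05. Usp37, a cell cycle deubiquitinase, differed by 0.46 ± 0.11, and the protein phosphatase 2A subunits Ppp2r1b and Ppp2cb by 0.52 ± 0.16 and 0.42 ± 0.14 (SE, limma adjusted p = 0.247, 0.339 and 0.431). Of 9 tested genes of the anaphase-promoting complex and its activator Cdh1, which degrades Skp2 and Cks1, 0 passed and the median was -0.08. Anapc13 differed by -0.30 ± 0.12, Anapc7 by -0.22 ± 0.13 and Cdc27 by 0.20 ± 0.13 (SE, limma adjusted p = 0.565, 0.752 and 0.784). These lists are compared with all genes by their counts and medians alone, beside which the B lineage marker mean differed by -0.97.

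**Figure D4:**
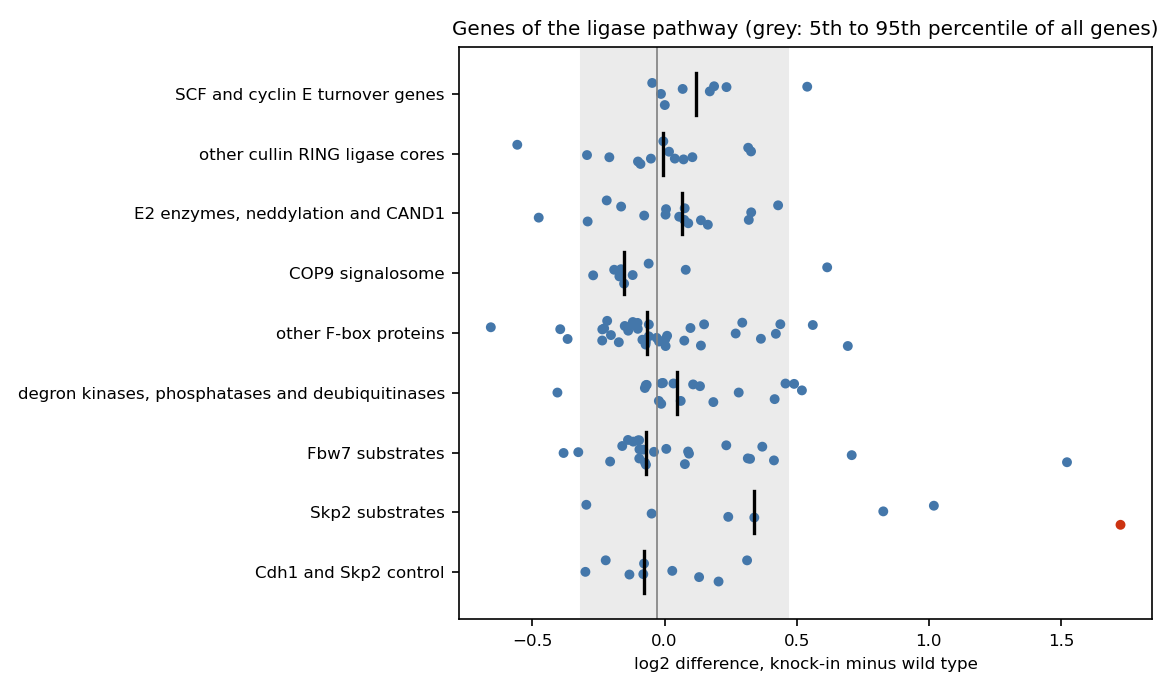
Log2 difference, knock-in minus wild type, of the tested genes of each list (points, scattered vertically within a list), with the list's median as a black line. The grey band spans the 5th to the 95th percentile of all 9388 genes and the thin line their median of -0.03; the single gene past the limma test, Cdkn1a, is red at 1.73.

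Over the 6 samples the 3 genes whose levels ran most like Fbxw7 were Hdhd2 (Pearson r = 0.984), Gtf3c5 (0.978) and Man1a (0.977), and 80 of 9387 genes had an r above 0.9. Their own differences between the genotypes were -0.01, -0.02 and 0.05. These correlations describe 6 points that share array blocks.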

How the data were processed

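Sorted erythroblast RNA was extracted with Trizol, cleaned with DNase treatment and labelled as biotinylated cRNA for Illumina arrays, per the labels' protocols. The submitters' processing notes name GenomeStudio, with no version. One deposited table holds intensity values, not normalized by its name; on each array 33.05% to 37.02% of them were negative, as after background subtraction. A second table of the authors' processed intensity values served as an alternative, though the sources used here do not give its scaling.

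The deposited intensities then went through limma's normexp correction (offset 50), quantile normalization and log2. A probe was above background past the 90th percentile of the negated negative values of its array, and was kept if so on at least 6 of the 12 arrays. Each gene is its kept probe with the highest mean. Duplicate arrays were averaged, and limma 3.58.1 in R 4.3.3 (lmFit, eBayes) tested 3 against 3 samples with Benjamini-Hochberg adjustment over all 9388 genes, or all 16894 probes, at 0.05. Intervals are 95% intervals of that model, and the number of arrays limits the precision. Genes were named by the platform annotation, which gives 1 symbol for 34885 probes, several for 18 and none for 10378. Members and lists were chosen with earlier results of these data known. Named are all members and their probes, Ccne1, Ccne2 and Cdk2, in each list the genes that pass or else the 3 with the smallest p, and the 3 genes most like Fbxw7. Alternatives covered background correction, scaling, filter, probe choice, fit and left-out samples. Figures used matplotlib 3.10.9.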

Additional observations from a re-analysis of the deposited data

How the results depend on the processing

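Under 12 other settings on all samples and with each of the 6 samples left out in turn, 0 member genes were called in either direction. Member probes called higher were 0 in the reported fit and 2 with the 12 arrays as 12 samples. For all genes, 8 were called higher and 0 lower; these counts were 17 higher from the authors' processed values, 17 higher with no background correction, 34 and 10 with array weights, 16 higher with eBayes trend and robust, 536 and 324 with 12 arrays as samples, 237 and 46 with the duplicates as a random block, 63 and 25 with the blocks of 4 arrays, and 1 lower with the mean of a gene's probes. With 1 sample left out they lay between 0 and 4 higher and between 0 and 2 lower. Pathway genes called higher were 1 as reported, 2 with array weights, 18 with 12 arrays as samples, 5 with the random block and 5 with the blocks of 4, and 0 to 1 with a sample left out; called lower were 8 with 12 arrays as samples and 1 with the blocks. Rbx1 differed by 0.03 with cyclic loess and 0.23 with 75th percentile scaling, against -0.05, and Cops3 by 0.06 with that scaling, against -0.19; the cause was not tested. With a sample left out the difference ranged from -0.13 to 0.18 for Fbxw7, -0.03 to 0.17 for Skp1, -0.04 to 0.30 for Cul1 and 0.02 to 0.37 for Gsk3b. It ranged from 0.07 to 0.26 for Skp2, -0.07 to 0.06 for Usp28, 0.27 to 0.74 for Cul3 and -0.11 to 0.19 for the dimmer Cul3 probe. Skp2, a dim gene, differed by 0.78 with no background correction and 0.76 from the authors' values, against 0.19, and was not called in either. The labels give the genotypes no shared replicate numbers, so the blocks of 4 adjacent arrays, which no label names, were the only pairing fitted.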

Other observations

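A single sample stood apart for a gene of the COP9 signalosome, a value picked out after the data were seen. Cops8 was at 8.52 log2 units in the knock-in sample of arrays 3 and 4 and between 6.30 and 6.48 in the other 5 samples, of both genotypes. The 2 arrays of that sample read 339.5 and 292.7 intensity units, against 11.9 to 36.2 on the other 10 arrays. Cops8 has 1 probe on the array, so that no second probe bears on this value.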
